A study of Rattus norvegicus with 11 samples.

Results

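The mitochondrial carrier family was followed through its Slc25a genes in ventricular myocytes, the contractile cells of the heart, from male and female rats. Its members were the rows of the deposited table whose symbol begins with Slc25a and a digit, leaving out the carnitine carrier Slc25a20, and there were 39 of them among 17257 genes. The choice used names only and no measured value. The animals were wild-type Sprague Dawley rats aged 3 to 4 months, given no treatment, and the groups were 6 male and 5 female libraries. Hearts were perfused on a Langendorff apparatus, and the myocytes were kept on dishes for 45 minutes before freezing. The labels name each library as a replicate, and the series' design text calls them biological. The values were mean normalized counts of each sex, which are gene counts divided by a size factor for the depth of each library, with the authors' p-values and their fold changes, given here as the log2 ratio of the female to the male mean. The table held no SD, so group means stand without one except where reads per library could be recovered from the digits of the means. Such libraries are known by sex only, and within a sex their values are listed from the largest size factor to the smallest.

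Mitochondrial carriers are proteins of the inner membrane, with a few in the outer membrane or in peroxisomes, that pass solutes between the matrix and the cytosol. They export the ATP made by respiration, import ADP and phosphate, and move amino acids, citric acid cycle intermediates, nucleotides, coenzymes and iron. In heart muscle, where most ATP comes from respiration, the exchanger of ADP for ATP and the phosphate carrier serve the ATP synthase directly.

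Of the 39 members, 36 had a mean above 0 and 29 a mean of at least 50 normalized counts. Slc25a41, Slc25a53 and Slc25a54 were listed at 0. Taking an adjusted p under 0.05 as the call, the authors' deposited table had 3 members higher in females (Slc25a34, Slc25a39 and Slc25a42) and 1 lower (Slc25a46). That is 11.1% of the members tested, beside 14.5% of all 13346 genes tested. By direction, 6.71% of all genes tested were higher in females and 7.76% lower. Among genes with a mean of at least 50, 13.8% of members and 20.5% of all genes passed, so the family's share of calls lay near or below that of the table and is not a result about the family. The median log2 fold change of the members was -0.06, beside -0.01 for all genes tested. An unadjusted p under 0.05 was reached by 9 members, or 25%, beside 27.3% of all genes.

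**Figure D1:**
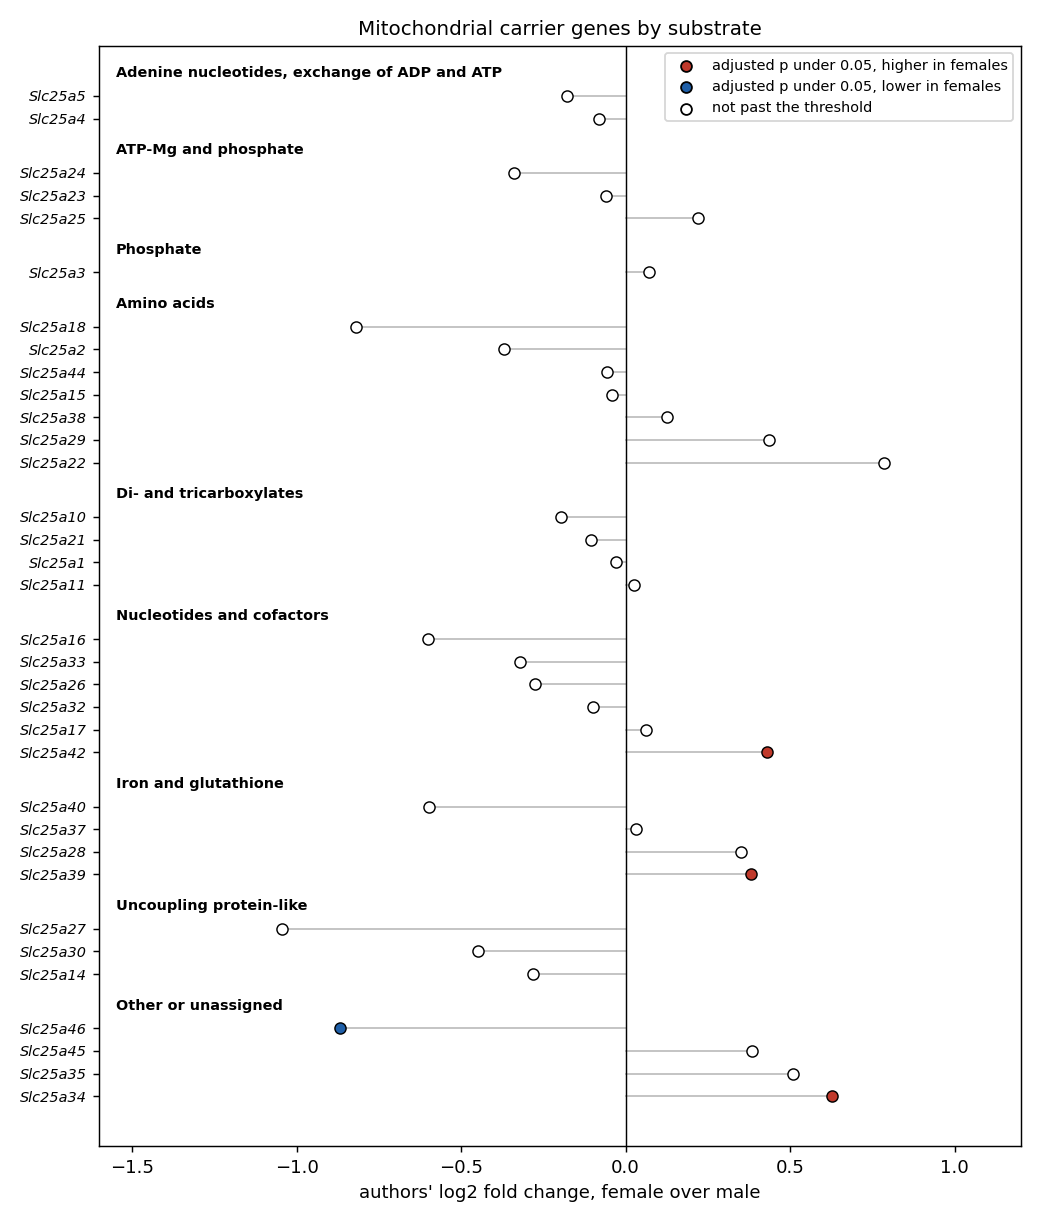
The authors' log2 fold change (female over male, horizontal axis) of carrier genes with reads in both sexes is drawn as points, grouped by substrate. Filled points passed the adjusted p of 0.05, red for the 3 genes higher in females and blue for Slc25a46, which was lower, and Slc25a47, at 0 in females, is not drawn.

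The 5′ flanks of Slc25a34, Slc25a39 and Slc25a42 are shown so that the start regions of the genes higher in females can be compared by composition. For each, the 250 bases before the RefSeq start are given 5′ to 3′ on the gene's strand (build GRCr8, while the files use rn6), in a table of promoters that held 33 of the 39 members. Capitals mark each CCAAT (or its reverse complement ATTGG) and each GGGCGG (or CCGCCC), 2 motifs chosen after the sequences were seen. These runs lie at chr5:159219893-159220142 (minus strand) for Slc25a34, chr10:87866974-87867223 (minus strand) for Slc25a39 and chr16:19247724-19247973 (plus strand) for Slc25a42.
Slc25a34: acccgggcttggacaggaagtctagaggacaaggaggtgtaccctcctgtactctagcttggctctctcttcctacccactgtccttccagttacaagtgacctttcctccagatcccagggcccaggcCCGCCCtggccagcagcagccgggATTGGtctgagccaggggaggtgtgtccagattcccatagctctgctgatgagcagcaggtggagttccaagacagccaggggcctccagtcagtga
Slc25a39: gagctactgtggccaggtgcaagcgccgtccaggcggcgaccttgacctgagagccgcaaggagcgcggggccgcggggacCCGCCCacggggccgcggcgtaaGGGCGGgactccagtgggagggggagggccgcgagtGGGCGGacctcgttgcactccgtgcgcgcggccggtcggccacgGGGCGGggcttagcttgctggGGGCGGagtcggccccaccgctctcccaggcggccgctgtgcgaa
Slc25a42: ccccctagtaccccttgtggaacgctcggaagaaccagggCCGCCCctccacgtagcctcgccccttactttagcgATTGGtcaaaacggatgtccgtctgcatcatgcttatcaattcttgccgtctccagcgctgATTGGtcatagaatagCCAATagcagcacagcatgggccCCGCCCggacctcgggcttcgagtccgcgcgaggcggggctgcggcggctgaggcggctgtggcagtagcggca

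The flank of Slc25a39 was 76.4% G and C with 5 GC boxes and 0 CCAAT matches. In contrast, the flank of Slc25a42 was 62.4% G and C with 3 CCAAT matches and 2 GC boxes, and that of Slc25a34 59.6% with 1 of each. The median was 59.6% over the flanks of tested genes and 58% over those of members. Over the 33 member flanks, CCAAT on either strand was present in 19, or 57.6%, beside 34.5% of the flanks of the 10329 tested genes with an entry. GGGCGG on either strand was in 20 member flanks, or 60.6%, beside 55.4%. Of 3 longer motifs searched on both strands, the NRF1 motif, the estrogen-related receptor motif TCAAGGTCA and the palindromic estrogen response element, none occurred in its consensus letters in the member flanks. They were in 8.01%, 0.22% and 0.02% of the flanks of tested genes.

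Carriers of the ATP cycle had folds close to 1. Slc25a4 encodes the ADP/ATP exchanger of heart and skeletal muscle, and its means in the authors' deposited table were 231226 normalized counts in males and 218544 in females, a log2 ratio of -0.08 at adjusted p = 0.781. The broadly expressed exchanger Slc25a5, an X-linked gene, averaged 9700 and 8581, and the authors' deposited table gives it a log2 ratio of -0.18 at adjusted p = 0.399. Slc25a3, the phosphate carrier, averaged 70472 and 74053 in the authors' deposited table, a log2 ratio of 0.07 at adjusted p = 0.849. These and the oxoglutarate carrier Slc25a11 were the 4 members with a mean of at least 5000, and their folds ran from 0.885 to 1.05. Together they held 95.7% of the family's summed counts in males and 95.4% in females, and Slc25a4 alone 69.3% and 67.4%. Counts grow with transcript length, which was not used here, so these are shares of counts and not an order of levels. None of the 4 passed the test, beside 27.4% of all genes at such means, and 4 genes are too few to read that as a difference. The median size of the log2 fold change was 0.08 for the 4 and 0.26 for all 853 genes at such means. The RefSeq table lists 9 pseudogenes of Slc25a5, 2 of Slc25a3 and 1 of Slc25a4, whose reads the authors' counting could have divided.

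The ATP-Mg/phosphate carriers exchange ATP bound to magnesium for phosphate, are activated by calcium, and set the size of the adenine nucleotide pool in the matrix. None of the 3 with reads passed the threshold. In the authors' deposited table Slc25a23 averaged 290.5 (males) and 278.7 (females), with a log2 ratio of -0.06. Slc25a25 averaged 692 and 806, and Slc25a24 137 and 108, in the authors' deposited table, with log2 ratios of 0.22 and -0.34. Their adjusted p-values were 0.949, 0.425 and 0.420 there.

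**Figure D2:**
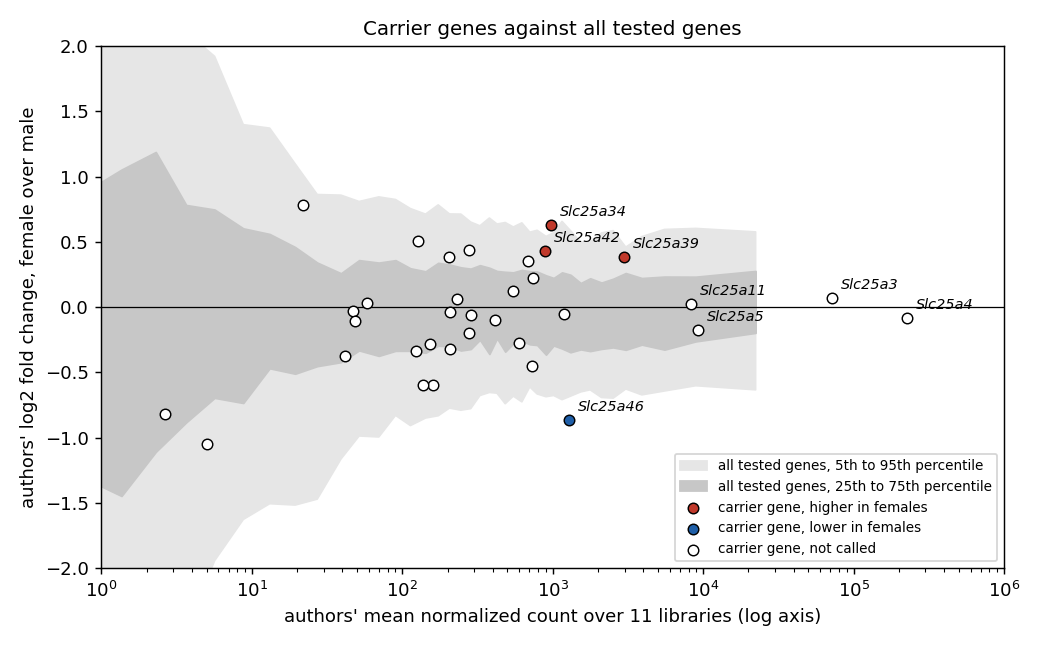
The authors' log2 fold change (female over male, vertical axis) of carrier genes with reads in both sexes is set against the mean normalized count over 11 libraries (log axis), over grey bands that hold the middle of all tested genes at each level. The 4 carrier genes with the largest counts sit close to 0, and the called genes Slc25a34, Slc25a39, Slc25a42 and Slc25a46 have means from 885 to 2957.

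Carriers of cofactors and nucleotides included 1 called gene of 7, or 14.3%. All 7 had a mean of at least 50, where 20.5% of all genes passed. Slc25a42 brings coenzyme A into the matrix, and its mean in the authors' deposited table was 765 normalized counts in males and 1029 in females. It rose 1.35-fold in females, with a log2 ratio of 0.43 and adjusted p = 0.0433 by DESeq in the authors' deposited table. Slc25a16, a carrier also linked to coenzyme A, had a ratio of the opposite sign that did not pass the threshold, with means of 188 and 124 and a log2 ratio of -0.60 at adjusted p = 0.0932 in the authors' deposited table. Reads of Slc25a16 could be recovered in the 5 female libraries, where the normalized counts were 130.4, 176.5, 108, 64.8 and 141, a mean of 124 ± 41.4 (SD, n = 5). All 5 lay below the male mean of 188, but the spread of the male libraries is not known.

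Another 4 cofactor and nucleotide carriers had log2 ratios from -0.32 to 0.06 in the authors' deposited table. Slc25a33, which carries pyrimidine nucleotides, averaged 229.8 (males) and 184 (females). Slc25a26, the carrier of the methyl donor S-adenosylmethionine, averaged 645 and 532 at adjusted p = 0.322 in the authors' deposited table. Slc25a32, linked to folate and flavin, had 426 and 398 there, and the peroxisomal carrier Slc25a17 had 226 and 236. These 4 genes differed by at most 1.25-fold between the sexes, and their adjusted p-values ran from 0.322 to 0.904 in the authors' deposited table.

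Among iron and glutathione carriers, 1 of 4 was called, or 25%. All 4 had a mean of at least 50, where 20.5% of all genes passed, so the share lay near that level. Slc25a39 imports glutathione, the main thiol antioxidant of the matrix, and had means of 2600 normalized counts in males and 3385 in females in the authors' deposited table. It rose 1.30-fold in females, with a log2 ratio of 0.38 and adjusted p = 0.0348 by DESeq in the authors' deposited table. RefSeq lists 8 pseudogenes of Slc25a39, so part of its reads may have been assigned elsewhere and the value is uncertain. Slc25a40, its close relative, averaged 163 and 108 in the authors' deposited table, a log2 ratio of -0.60 at adjusted p = 0.0784. Its normalized counts in the 5 female libraries were 86.3, 109.5, 116, 98.7 and 129.7, a mean of 108 ± 16.5 (SD, n = 5), and all of them lay below the male mean. The 2 glutathione carriers thus had fold changes of opposite sign, and the difference between them was not tested.

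Mitoferrins carry iron into the matrix for haem and iron-sulphur clusters. Slc25a28, the mitoferrin of most tissues, averaged 612 (males) and 780 (females), a log2 ratio of 0.35 at adjusted p = 0.0856 in the authors' deposited table. Slc25a37, best known from developing red cells, had normalized counts of 68.2, 50.7, 84.7, 54.7, 32.95 and 53.0 in the male libraries. In the female libraries they were 74.0, 74.2, 38.3, 24.7 and 82.3. The sexes overlapped almost wholly, with an exact permutation p = 0.924 (two-sided).

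**Figure D3:**
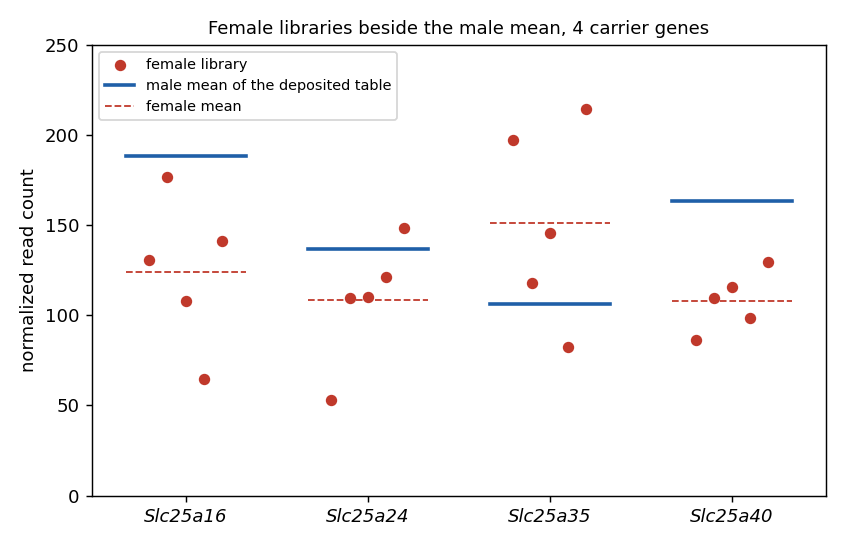
Normalized read counts (vertical axis) of the 5 female libraries are drawn as points for Slc25a16, Slc25a24, Slc25a35 and Slc25a40, with the female mean dashed and the male mean of the authors' deposited table as a solid line. All female points lie below the male mean for Slc25a16 and Slc25a40, 4 of 5 do for Slc25a24, and 1 of 5 does for Slc25a35.

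The group of carriers with other or unassigned roles held 2 of the 4 called genes, 1 in each direction. Its tested genes numbered 5, so the share called was 40%, beside 14.5% over the whole table. Only Slc25a47 among the 5 averaged under 50 normalized counts, and from that level up 20.5% of the table's genes passed. So small a group does not let the share be read as a difference, and it was not tested. Slc25a34, whose substrate is not settled, had means of 783 normalized counts in males and 1211 in females in the authors' deposited table. It rose 1.55-fold in females, with a log2 ratio of 0.63, and its adjusted p = 0.0018 was the smallest of the family in the authors' deposited table. Its relative Slc25a35 averaged 106 and 151, a log2 ratio of 0.51 at adjusted p = 0.188 in the authors' deposited table. The 5 female libraries held 197, 118, 145, 82.3 and 214 normalized counts of Slc25a35, a mean of 151 ± 54.7 (SD, n = 5), and 1 of them lay below the male mean.

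Slc25a46, an outer membrane protein that takes part in mitochondrial fission and in the shaping of cristae, was the member lower in females. In the authors' deposited table its means were 1609 normalized counts in males and 881 in females, a log2 ratio of -0.87 (a fold of 0.548) at adjusted p = 0.0106. Of the called members, the RefSeq table lays Slc25a46 over part of Sap130 and Slc25a42 over Tmem161a. Many uncalled members also overlap a coding gene there, among them Slc25a2, Slc25a11, Slc25a16, Slc25a22, Slc25a35 and Slc25a40. The sources used here do not say whether counting used strand, so the reads of overlapping genes could not be told apart. Slc25a45 averaged 178 and 233 at adjusted p = 0.548 in the authors' deposited table. Slc25a47, known from liver, had 11 reads in 2 male libraries, 10 of them in 1, and 0 in the 5 female libraries. Against a floor of 3 counts over the female group its mean was at least 3.87-fold lower in females. That bound rests on 1 male library, since without it the male mean was 0.207, under the floor of 0.576, and no bound remained. With 9 of 11 libraries at 0, an exact permutation test of these values could not give a p under 0.182, so no result is drawn from it.

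Of 7 amino acid carriers with reads, none was called. Slc25a29, a carrier of basic amino acids, came nearest, averaging 238 in males and 323 in females with a log2 ratio of 0.44 at adjusted p = 0.165 in the authors' deposited table. Slc25a44, the carrier of branched-chain amino acids, averaged 1207 and 1161, and Slc25a38, a glycine carrier needed for haem synthesis, 527 and 575 in the authors' deposited table. The ornithine carrier Slc25a15 had 211 and 206 there. These 3 had adjusted p-values from 0.677 to 0.955.

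The glutamate carrier Slc25a22 had the largest positive fold of the family, on few reads. Its normalized counts were 7.67, 22.6, 17.1, 29.9, 12.2 and 8.63 in the male libraries, with a mean of 16.4 ± 8.68 (SD, n = 6). In the female libraries they were 45.8, 38.9, 17.2, 29.8 and 9.26, with a mean of 28.2 ± 15.1 (SD, n = 5). Only 2 of 5 female libraries lay above every male library, and the exact permutation test gave p = 0.177 (two-sided). The related glutamate carrier Slc25a18 had 20 reads over the male libraries and 9 over the females, all 9 in 1 library, and the exact permutation test gave p = 0.177 (two-sided). For Slc25a2, a second ornithine carrier, the male libraries ran from 15.5 to 85.1 normalized counts with a median of 39.5, and the female libraries lay within that range at 39.6, 45.3, 42.1, 28.8 and 22.6 (exact permutation p = 0.630, two-sided). Both glutamate carriers and Slc25a2 thus overlapped between the sexes. For the glutamate carriers 1 library weighed heavily, the female one with the smallest size factor. Without it the difference of mean log2(normalized count + 1) moved from -1.17 to -1.84 for Slc25a18, where it held all 9 female reads. For Slc25a22, where it was the lowest female library, the difference moved from 0.71 to 1.03. The exact permutation p-values were then 0.0333 and 0.0476, unadjusted, and neither passed after adjustment. Each was the smallest of 11 tests that left out 1 library in turn, which ran up to 0.286 and 0.333. No result is drawn from them. The log2 ratios of the group means were -0.82 for Slc25a18 and 0.79 for Slc25a22 in the authors' deposited table.

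Carriers of di- and tricarboxylates link the citric acid cycle to the cytosol, and none of 4 was called. Slc25a11, the oxoglutarate carrier of the malate-aspartate shuttle, which brings reducing equivalents of cytosolic NADH into the matrix, averaged 8174 (males) and 8314 (females) in the authors' deposited table. The authors' deposited table gives it a log2 ratio of 0.02 at adjusted p = 0.955. The dicarboxylate carrier Slc25a10 averaged 296 and 258 at adjusted p = 0.821 in the authors' deposited table. The citrate carrier Slc25a1, which exports citrate for fatty acid synthesis, had normalized counts of 37.5, 26.2, 36.2, 64.0, 59.8 and 61.6 in males. In females it had 42.3, 56.1, 58.4, 75.1 and 1.03, the last being 1 read in the library with the smallest female size factor, and the exact permutation p was 0.760 (two-sided). The oxoadipate carrier Slc25a21 had from 23.7 to 69.0 normalized counts in males, with a median of 50.03. Its female values were 44.9, 36.2, 37.3, 42.2 and 71.0, and the exact permutation p was 0.805 (two-sided).

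**Figure D4:**
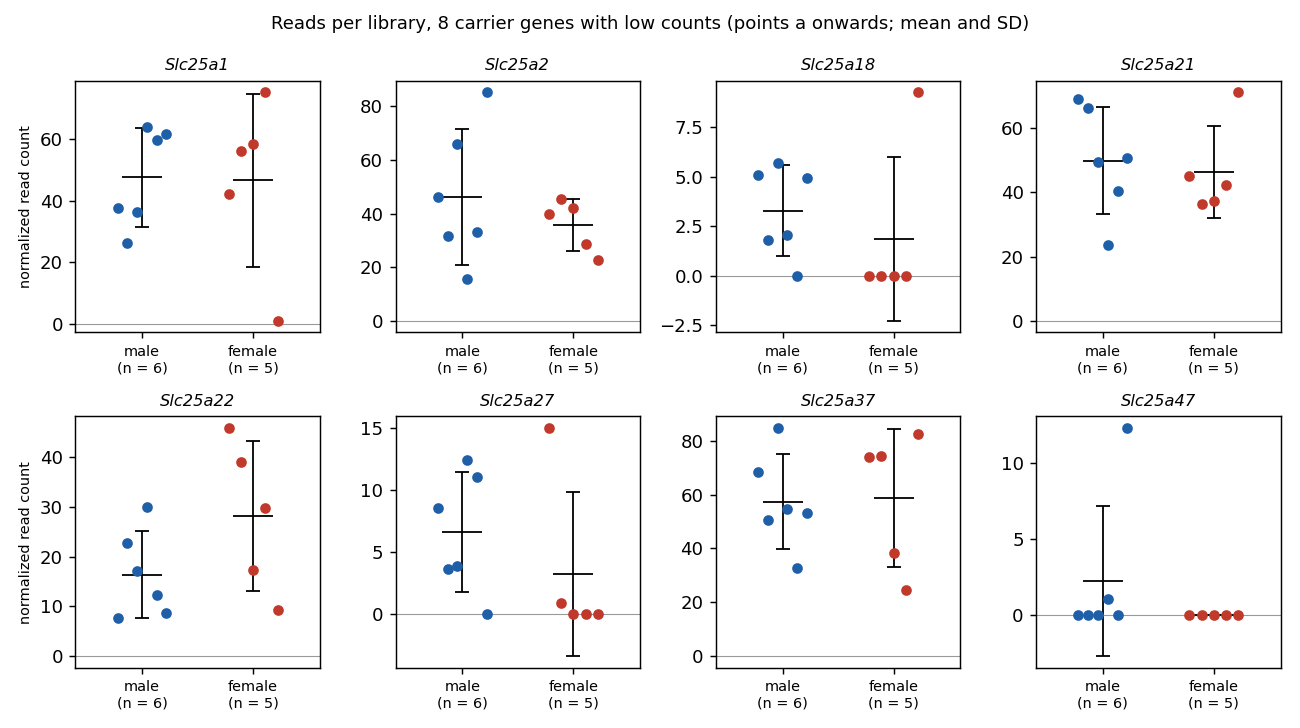
Normalized read counts (vertical axis, a scale for each gene) of the 6 male and 5 female libraries are drawn as points for 8 carrier genes, with the mean and SD in black. The sexes overlap in every panel, and single libraries stand apart for Slc25a1, Slc25a18, Slc25a21, Slc25a27 and Slc25a47.

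The 3 genes related to uncoupling proteins, which pass protons or other ions through the inner membrane, all had negative log2 ratios and none was called. Slc25a30 averaged 833 (males) and 610 (females), a log2 ratio of -0.45 at adjusted p = 0.136 in the authors' deposited table. Slc25a14, an X-linked gene, averaged 167 and 137, a log2 ratio of -0.28 at adjusted p = 0.539 in the authors' deposited table. Slc25a27, known from brain, had normalized counts of 8.52, 3.62, 3.81, 12.4, 10.98 and 0 in males. In females they were 14.98, 0.905, 0, 0 and 0, and the exact permutation p was 0.143 (two-sided). The log2 ratio of its group means was -1.05 in the authors' deposited table, and the difference of mean log2(normalized count + 1) was -1.52. Without the female library that held 14.98, or 17 of 18 female reads, that difference moved to -2.28 (exact permutation p = 0.0333, unadjusted). It did not pass after adjustment. That p was the smallest of 11 tests that left out 1 library in turn, which ran up to 0.238, so no result is drawn from it.

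For 8 members, then, whole reads were known in all 11 libraries. For 7 of them, all but Slc25a47, the values allowed an exact permutation p as small as 0.0022. None of the 7 passed, with exact permutation p-values from 0.143 to 0.924, or from 0.414 to 0.924 adjusted over the 7 by Benjamini-Hochberg. The authors' adjusted p missed the threshold for the same 8 genes. Members of 20 to 100 normalized counts were in a range where 5.29% of all genes passed in the authors' deposited table, and below 20 it was 0.803%.

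Transporters of other families in mitochondrial membranes were called in both directions. Of 18 listed, 1 was higher and 3 were lower in females, or 22.2%, beside 14.5% of all genes. A mean of at least 50 was reached by 17 of them, and 20.5% of all genes at such means passed, so the share lay near that level. The median log2 fold change of the 18 was -0.09. Mpc2, a subunit of the pyruvate carrier, fell by 0.40 at adjusted p = 0.0449 in the authors' deposited table, while its partner Mpc1 had a log2 ratio of -0.20 at adjusted p = 0.372. Mtch1 and Mtch2, carrier homologues of the outer membrane with symbols outside the rule, had log2 ratios of 0.45 and -0.38 (adjusted p = 0.0176 and 0.0384, both in the authors' deposited table). The porins Vdac1, Vdac2 and Vdac3, which let metabolites through the outer membrane, had log2 ratios from -0.27 to -0.05 there, and none passed.

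Enzymes that make or use the carriers' substrates were also divided. Of 37 with reads, 3 were higher and 3 lower in females, or 16.2%, beside 14.5% of all genes. A mean of at least 50 was reached by 35 of them, and 20.5% of all genes at such means passed. The median log2 fold change of the 37 was 0.01. Bcat2 and Bckdha, which break down branched-chain amino acids in the matrix, rose by 0.48 and 0.59 (adjusted p = 0.0149 and 0.0017, both in the authors' deposited table). Bckdhb, a gene of the same breakdown, did not, with a log2 ratio of -0.06 at adjusted p = 0.903 in the authors' deposited table. Their carrier Slc25a44 had a log2 ratio of -0.06. Flad1, the FAD synthase, rose by 0.66 at adjusted p = 0.0022 in the authors' deposited table, beside -0.10 for Slc25a32. Pank3, a pantothenate kinase that starts coenzyme A synthesis, fell by 0.90 at adjusted p = 0.0028 in the authors' deposited table, opposite in sign to Slc25a42. The other listed genes of that synthesis were not called and were of both signs. Their log2 ratios were 0.20 for Pank1, 0.12 for Coasy and -0.31 for Pank2 in the authors' deposited table. The shuttle enzymes Got1, Got2, Mdh1 and Mdh2, which work with Slc25a11, had log2 ratios from 0.11 to 0.22 in the authors' deposited table, and none passed.

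The preparations carried the RNA of myocytes and of other heart cells. Tnnt2, a troponin of heart muscle, averaged 635109 (males) and 621679 (females) in the authors' deposited table. Of 6 myocyte markers, 2 were called higher in females, Myh6 and Ryr2, and 0 lower. That is 33.3%, beside 27.4% of all genes with a mean of at least 5000, a level that all 6 exceeded. The summed means of the 6 were 2.63e+06 in males and 3.19e+06 in females, of which Myh6 alone made up 831771 and 1.33e+06. The median log2 fold change of the 6 was 0.07, with 4 above 0 and 2 below. The summed means of 5 fibroblast markers, with Col1a2 listed at 0, were 7216 in males and 4977 in females. Most of that was Dcn, which averaged 5594 and 3902 and was not called. Of the 4 with reads, 1 was called in the authors' deposited table, Col1a1, which was lower. That is 25%, beside 20.5% of all genes with a mean of at least 50, a level that all 4 reached. All 4 log2 ratios were below 0. The sums of 4 endothelial markers were 13725 and 13907, with none called, 3 log2 ratios above 0 and 1 below. Those of 4 leukocyte markers were 368 and 291, with none called and all 4 log2 ratios below 0. The sums of 4 smooth muscle and pericyte markers were 4361 and 4036, with none called. Of these 4, 3 had a positive log2 ratio, while Rgs5 averaged 2647 in males and 1924 in females. The sums of 3 erythroid markers were 278 and 464, with none called, and Slc4a1 alone averaged 277 and 464 in the authors' deposited table. The brown fat gene Ucp1 was at 0 in males and 0.529 in females. The part of other cell types in the carrier values was not tested, and in such bulk RNA fewer cells of a type and less RNA per cell cannot be told apart.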

How the data were processed

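Total RNA of at least 9 in integrity number was depleted of ribosomal RNA, and stranded paired-end libraries were made from 650 ng, per the labels' protocols. Per the submitters' processing notes, the build was rn6, the aligner TopHat2 2.0.12, and DESeq, HTSeq 0.6.1, Trimmomatic 0.32 and FastQC are named too. Their order and settings, the annotation and the use of strand are not given in the sources used here. The authors deposited, per the file headers, a mean normalized signal (counts divided by size factors) over all libraries and over groups A and B. They also deposited the ratio of the group means (fold change), its log2 value, and a p-value with its adjusted value. A weighting of A by 6 and B by 5 returned the overall mean of each of the 13346 genes tested, so A was read as males and B as females. No column of values was left unused (0 columns).

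Members were sorted into 9 substrate groups, with 1 further row, Slc25a54, placed among the unassigned. Another 9 carrier names on these lists are not analysed here. The authors' adjusted p under 0.05 was the call, and no new model was fitted, since the table holds means of groups. Named were all called members, members with an adjusted p under 0.2, the 10 with the highest means and those with recovered reads, and the listed transporters and enzymes that were called. A few of these are not reported here by name or drawn, but stay in the counts. Most remaining members, and a few uncalled genes beside them, are also given. Members, lists and rules were chosen with earlier results of these data known.

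A group mean is made of whole reads, each divided by its library's size factor. Values from single reads gave the size factors (0.811 to 1.17 in males, 0.972 to 1.14 in females), refined on 1689 and 1668 genes, and whole reads were then searched within the rounding of 15 significant digits. The planned limits were means of 30 in males and 100 in females. They were raised to 60 and 155 after the data were examined, keeping genes with exactly 1 solution, and Slc25a14 in females, with 2, was dropped. On simulated reads at the members' means, 100% of 71 sets in males and 94.6% of 111 in females came back as the single solution, and the true reads were missing from the solutions in 0. Libraries are therefore known by sex and size factor and are lettered from a in falling order, which is also the order in which their values are given. Tests on these reads were exact permutations of log2(normalized count + 1), read only where the values could give a p under 0.05. Python 3.11.15 with numpy 2.4.6 and pandas 2.3.3 was used. The floor covers counting error only, while each SD is the spread between the recovered libraries of a sex.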

Additional observations from a re-analysis of the deposited data

Results flagged for a closer look

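Single libraries stood far from the rest of their group in 4 of the 19 gene and sex groups with recovered reads, judged by the gap to the nearest library as a share of the group's range, a check that chance meets in about 1 of 20 groups of normally distributed values. That rate does not apply to groups that are mostly at or near 0 reads, where 1 library with reads is marked by construction, as in 3 of these 4. Slc25a18 had a normalized count of 9.26 in female library e and 0 in the other 4. Slc25a21 had 71.0 in the same female library, above the other females and the males. Slc25a27 had 14.98 in female library a, while the others held at most 0.905. Slc25a47 had 12.3 in male library f, against 1.03 or 0 in the others. Those of Slc25a18, Slc25a27 and Slc25a47 rest on 17 reads or fewer, and the causes were not tested.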

How the results depend on the processing

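The count of 4 called members became 1 at an adjusted p under 0.01 (Slc25a34) and 7 at one under 0.1 (where 20.5% of all genes passed). It became 2 where a fold of at least 1.5 was asked beside the adjusted p under 0.05 (Slc25a34 and Slc25a46). The share of all genes under 0.01, or with that fold, is not given here, so these counts are not results about the family. At the threshold of 0.1 the cofactor and nucleotide carriers had 2 calls of 7, 1 in each direction, in place of 1. The iron and glutathione carriers had 3 of 4, 2 higher and 1 lower in females, in place of 1, beside the same 20.5% of all genes. All members of both groups had a mean of at least 50, and 2612 of the 9116 genes at such means passed at 0.1. The counts of the other 7 groups stayed as they were, and no group was tested. Adjusting over genes with a mean of at least 10, or leaving out members under a mean of 50, left the count at 4. Rescaling to equal totals of rows with a gene symbol moved every log2 fold change by -0.06 and reversed none of the 4 called genes, while the sign turned for 4 uncalled members with log2 ratios from 0.0245 to 0.0608, Slc25a11, Slc25a17 and Slc25a37 among them. The median fold change of the members moved by less than 0.1 under the 3 alternatives tried. For reads per library, Slc25a47 could not pass by its values, and 0 of the other members passed under any alternative, with 0 as both the lowest and the highest count when each library was left out in turn. Unadjusted, 3 of 77 such exact permutation tests had a p under 0.05, those of Slc25a18 and Slc25a22 without female library e and of Slc25a27 without female library a. The differences that follow are of mean log2(normalized count + 1), a measure unlike the log2 ratio of group means. That ratio was -0.03 for Slc25a1, -0.11 for Slc25a21 and 0.03 for Slc25a37 in the authors' deposited table. Differences that had not passed changed sign in 3 members. Unscaled reads gave a log2 difference of 0.0204 for Slc25a21 and 0.0441 for Slc25a37, against -0.07 and -0.05. Leaving out single libraries gave ranges from -0.98 to 0.32 for Slc25a1 (-0.64 with all libraries, 0.32 without female library e), from -0.26 to 0.0381 for Slc25a21 and from -0.20 to 0.22 for Slc25a37. The causes were not tested. No paired analysis was possible because the table gives group means, and the recovered libraries could not be tied to the labels' replicate numbers. The order of members by level was not computed, since no transcript length was at hand.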

Other observations

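Slc25a1 had 1 read in female library e and 48 to 73 reads in the other 4 female libraries. To see how often a library falls out in this way, reads were recovered for all 672 genes with a female mean from 30 to 60. Female library e lay under 10% of the next lowest library in 9 of them, beside 0 to 3 genes for each of the other 4. In 374 genes with male means from 20 to 30, the male libraries did so in 0 to 7 genes each. These values are given without an explanation, and the deposited fold change of Slc25a1 averages over this library.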
